A study of Arabidopsis thaliana with 18 samples.

Results

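Leaves of the ethylene-insensitive double mutant ein3eil1 were compared with leaves of wild type Arabidopsis thaliana, both kept in air. Each group had 3 replicate libraries from plants 4 weeks old, made from RNA selected by its poly(A) tail, and the compared genes were all those with at least 1 TPM in at least 3 of the 6 libraries, which gave 18812 of 32833 listed genes. TPM is a length-normalized share of each library, so a level can be compared between genes, but it keeps no read depth. Other libraries are used where stated: phyA-211, a mutant line of the phytochrome gene PHYA, in air, and wild type and ein3eil1 kept under water for 6 hours. Every title, in air and under water, carries the word mock, which the labels do not explain, and the treatment protocol of every sample, those in air included, is the same submergence. The labels do not give the accession of the wild type, the ein3 and eil1 alleles, or whether replicates came from separate plants, and p-values then reflect only how these libraries scatter, which may be technical. At the edge of the filter, the 649 genes that reached 1 TPM in exactly 3 libraries had a median level of 1.16 TPM, and the 642 that reached it in 2 libraries and were left out had 0.857 TPM. Of the members, 326 passed through the ein3eil1 libraries alone and 39 through the wild type libraries alone. Such genes had to differ to be tested, so their tests support nothing, although they stay in the counts. Of those named below with a symbol, ARGOS, ACS4, RAP2.6, CYP94B3, YUC8, DIN11 and IAA29 passed through wild type alone, and HAI2, MUTE, IRX1, CO and LTP4 through ein3eil1 alone.

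EIN3 and EIL1 encode the transcription factors at the end of the ethylene pathway. Receptors in the endoplasmic reticulum keep the kinase CTR1 active in the absence of ethylene. Binding of the hormone releases EIN2, whose cleaved end protects EIN3 and EIL1 from the F-box proteins EBF1 and EBF2. The 2 factors then switch on ERF genes and further targets, among them defensins that also need jasmonate, and in leaves the pathway is known for promoting senescence and for responses to flooding.

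The most abundant genes took a smaller share of the ein3eil1 libraries. The 100 most abundant genes held 32.4% to 34.1% of all TPM in wild type and 22.2% to 25.4% in ein3eil1, and genes of light harvesting and Rubisco alone held 11.8% to 13.2% against 6.90% to 7.35%. The median gene stood 0.38 higher in ein3eil1 on the log2(TPM + 1) scale on which all differences here are given, a scale that understates the changes of genes with low values. With deposited TPM, limma called 8753 genes higher (46.5%) and 995 lower (5.29%) in ein3eil1 at an adjusted p under 0.05. After shifting every library to 1 median the counts were 1883 (10.0%) and 3030 (16.1%). In what follows a gene is said to have risen or fallen only where it was called in the same direction in all 3 scalings tried (deposited, median centring and quantile normalization), which held for 1708 genes higher (9.08%) and 946 lower (5.03%). Levels, differences and adjusted p-values are those of deposited TPM, and median centring lowers every difference by 0.42. Counts in the lists below are read against these shares: 46.5% higher and 5.29% lower in deposited TPM, 9.08% and 5.03% in all 3 scalings. The 2 groups did not overlap in 62.1% of all genes tested (ein3eil1 higher in 55.0%, lower in 7.08%).

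Floral transcripts set 2 of the ein3eil1 libraries apart. The summed level of 9 flower and shoot meristem markers was 9.08, 1.73 and 2.73 TPM in wild type, 35.1, 2.25 and 91.7 TPM in ein3eil1 and 1.37, 1.23 and 39.3 TPM in phyA-211 air libraries. The petal and stamen gene AP3 stood at 3.56, 0.22 and 16.6 TPM in ein3eil1 and at 0.43, 0.11 and 0.25 TPM in wild type, and the meristem gene STM at 9.35, 0.07 and 9.89 TPM against 0.85, 0 and 0 TPM. These genes were named after their values were seen. CLV3 was listed at 0 in all 6 libraries, WUS in the wild type libraries and ein3eil1 replicate 2, and AP1 in ein3eil1 replicate 2 and in wild type replicates 2 and 3. The label of the samples is leaves, and the leaf genes above were abundant in every library. With ein3eil1 replicate 2 alone against the 3 wild type libraries, 1350 genes were called higher and 268 lower (limma, with the spread taken from 9 libraries of 4 groups and the lone library assumed to vary like them). All 1708 genes that rose and all 946 that fell had the same sign in that fit, which shares these libraries, and 778 and 234 of them passed. The part of the floral RNA in the differences was otherwise not tested.

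**Figure D1:**
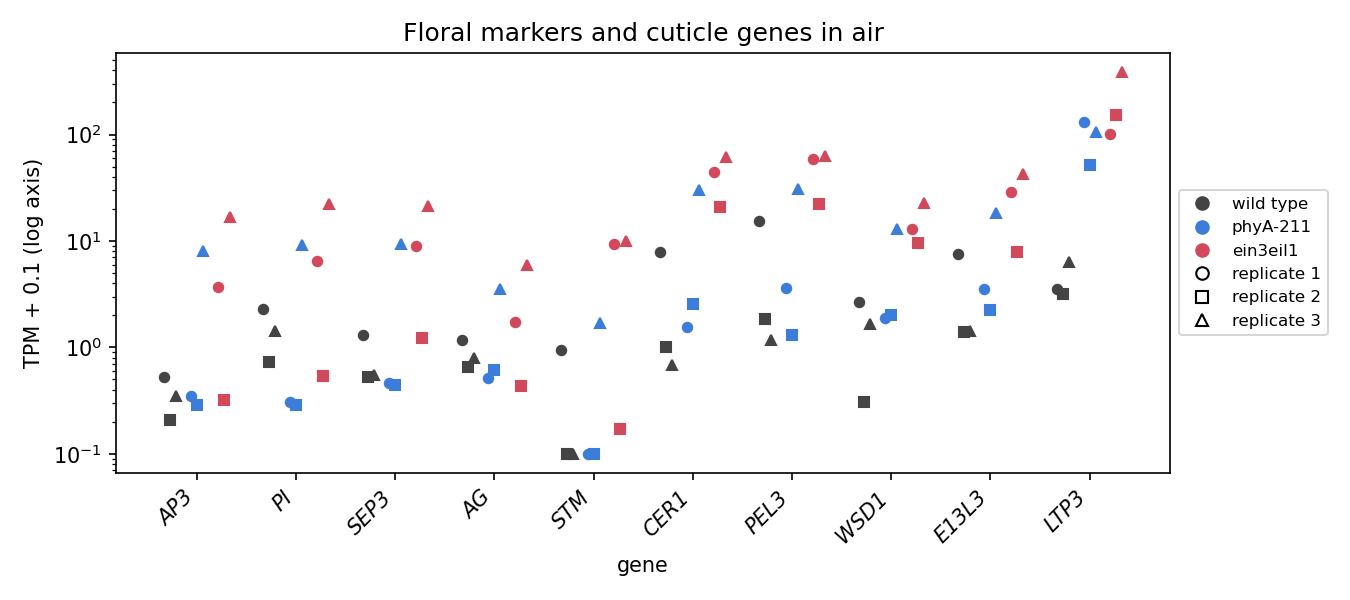
Levels in TPM (log axis, with 0.1 TPM added) of floral markers and of 5 of the genes with the largest increases in each of the 9 air libraries, one point per library. The floral markers were high in ein3eil1 replicates 1 and 3 and in phyA-211 replicate 3, and CER1 and PEL3 were highest in the same libraries within each line, while LTP3 stood at 151 TPM in ein3eil1 replicate 2.

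Both mutated genes were lower in their own line. EIN3 stood at 61.99, 55.9 and 61.3 TPM in wild type and 26.9, 27.3 and 28.3 TPM in ein3eil1 (log2 difference -1.09, SE 0.09, adjusted p = 0.000714). For EIL1 the levels were 38.2, 41.05 and 43.8 TPM in wild type and 17.03, 16.5 and 16.1 TPM in ein3eil1 (log2 difference -1.26, SE 0.09, adjusted p = 0.000673). The groups did not overlap, and a transcript of each gene remained in every ein3eil1 library. Because the alleles are unnamed, the remaining level says nothing of the product. EIL3, the relative known for sulfur limitation, was at 9.79, 8.51 and 9.05 TPM in wild type and 14.4, 15.6 and 13.2 TPM in ein3eil1 (log2 difference 0.60, SE 0.11, adjusted p = 0.00467), a call that was lost after centring. EIL2, EIL4 and EIL5 had no library at 1 TPM and were not tested.

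Promoter sequence was read for 18728 of the tested genes, as the 250 bases before and the first 50 of each gene's annotated start in RefSeq's TAIR10.1 assembly, matched by locus. The words ATGTAC and ATGTAT, from the site that EIN3 binds, and GCCGCC, the GCC box that ERF proteins bind, were searched on both strands. Matches of ATGTAC and ATGTAT can overlap on opposite strands and were counted for each word separately. ATGTAC was in 10.6% of all promoters, 11.3% of those of genes that rose and 11.0% of those of genes that fell; ATGTAT was in 25.2%, 26.1% and 27.3%, and GCCGCC in 2.74%, 2.58% and 2.35%. Among 68 tested genes of the ethylene lists the shares were 10.3%, 26.5% and 7.35%. Shown are the promoters of the 3 PDF1.2 defensin copies, known outputs of ethylene and jasmonate, and of EBF2, which EIN3 is known to activate, with matches in capitals. The GCC box stands 222 bases before the start of PDF1.2a and 143 before that of PDF1.2b, and it is not in the window of PDF1.2c. That window opens at a stretch like one that lies after the box in PDF1.2a and PDF1.2b. Bases further upstream of PDF1.2c were not searched, and distances are counted from each annotated start. PDF1.2c holds ATGTAT on the opposite strand 34 bases after its start, and EBF2 holds ATGTAT on the opposite strand (read as ATACAT) 65 bases before its start. A match describes these letters and is no evidence of binding.
PDF1.2a, chr5:17907589-17907888, minus strand: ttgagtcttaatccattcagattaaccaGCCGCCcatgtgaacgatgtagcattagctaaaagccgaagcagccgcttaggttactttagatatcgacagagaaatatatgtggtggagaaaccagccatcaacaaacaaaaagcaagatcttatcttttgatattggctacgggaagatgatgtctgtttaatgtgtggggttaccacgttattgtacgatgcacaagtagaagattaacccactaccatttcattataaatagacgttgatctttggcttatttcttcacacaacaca
PDF1.2b, chr2:11088873-11089172, plus strand: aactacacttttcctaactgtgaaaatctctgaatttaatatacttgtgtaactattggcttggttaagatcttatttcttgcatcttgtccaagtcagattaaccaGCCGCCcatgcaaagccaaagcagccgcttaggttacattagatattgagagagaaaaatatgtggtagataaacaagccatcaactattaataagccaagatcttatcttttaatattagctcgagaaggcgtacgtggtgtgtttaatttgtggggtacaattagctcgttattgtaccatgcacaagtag
PDF1.2c, chr5:17909458-17909757, minus strand: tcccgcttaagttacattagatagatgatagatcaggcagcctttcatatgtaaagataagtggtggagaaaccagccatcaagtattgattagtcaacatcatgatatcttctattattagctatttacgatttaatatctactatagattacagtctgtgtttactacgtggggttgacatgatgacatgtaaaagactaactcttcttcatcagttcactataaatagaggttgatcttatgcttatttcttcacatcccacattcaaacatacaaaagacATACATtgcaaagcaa
EBF2, chr5:8797300-8797599, minus strand: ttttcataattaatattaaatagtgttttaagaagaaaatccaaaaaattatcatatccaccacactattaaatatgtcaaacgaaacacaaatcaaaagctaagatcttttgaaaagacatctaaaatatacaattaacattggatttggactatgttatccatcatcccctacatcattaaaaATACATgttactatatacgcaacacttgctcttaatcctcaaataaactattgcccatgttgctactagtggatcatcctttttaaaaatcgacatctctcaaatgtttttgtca

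Upstream of EIN3, EIN2 and RAN1 rose in air, and EBF2, ARL and ETP1 fell. Of 16 tested receptor and signalling genes, 2 rose and 3 fell (5 higher and 3 lower in deposited TPM), against 9.08% and 5.03% of all genes. EBF2, whose product sends EIN3 and EIL1 to breakdown and whose gene EIN3 activates, stood at 29.9, 25.8 and 21.3 TPM in wild type and 8.09, 8.26 and 10.14 TPM in ein3eil1 (log2 difference -1.43, SE 0.15, adjusted p = 0.0013), with no overlap. Its partner EBF1 was at 40.8, 33.3 and 33.4 TPM in wild type and 29.1, 27.3 and 35.2 TPM in ein3eil1 and did not pass (log2 difference -0.23, SE 0.13, adjusted p = 0.177). ARL, a relative of the organ size gene ARGOS, stood at 6.75, 12.8 and 9.76 TPM in wild type and 2.81, 3.07 and 4.45 TPM in ein3eil1 (log2 difference -1.25, SE 0.24, adjusted p = 0.00514). ETP1, an F-box gene that acts on EIN2, stood at 35.7, 35.1 and 36 TPM in wild type and 26.97, 25.7 and 23.7 TPM in ein3eil1 (log2 difference -0.47, SE 0.09, adjusted p = 0.00498). All 3 of these genes were lower in every ein3eil1 library than in any wild type library. EIN2, the membrane protein that carries the signal to the nucleus, stood at 12.4, 8.11 and 9.31 TPM in wild type and 21.2, 18.9 and 19.5 TPM in ein3eil1 (log2 difference 0.95, SE 0.15, adjusted p = 0.00315) and rose. So did RAN1, the copper transporter that loads the receptors, at 17.3, 14.9 and 13.6 TPM in wild type and 29.99, 25.8 and 24.5 TPM in ein3eil1 (log2 difference 0.78, SE 0.12, adjusted p = 0.00307). Receptor genes gave smaller values: ETR1 was called at 0.60 and EIN4 at 0.69 in deposited TPM only, as was XRN4, an exoribonuclease of the pathway, at 0.69. ERS1 (-0.22), ETR2 (-0.48), CTR1 (0.19), RTE1 (0.05), RTH (0.10), ETP2 (0.11) and ARGOS (-0.54) did not pass in deposited TPM. Of these, ERS1, ETR2, RTE1 and ARGOS were called lower both after median centring and after quantile normalization, as was EBF1. ERS1 stood at -0.63 and EBF1 at -0.64 after centring, which lowers every difference by 0.42. ERS2, at 1.1 against 0.683 TPM, was not tested.

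Among ethylene synthesis genes, 2 of 12 tested members rose and 1 fell (5 higher and 1 lower in deposited TPM). ACS6, an ACC synthase gene known from wounding and defence, stood at 17.7, 24.6 and 24.9 TPM in wild type and 43.9, 43.5 and 50.2 TPM in ein3eil1 (log2 difference 1.01, SE 0.14, adjusted p = 0.00236). EOL1, which with ETO1 targets other ACC synthases for breakdown, stood at 10.4, 7.88 and 7.19 TPM in wild type and 21.3, 19.1 and 19.4 TPM in ein3eil1 (log2 difference 1.16, SE 0.14, adjusted p = 0.00176). Both rose, without overlap between the groups. ACS8 was low in every library, at 1.67, 3.24 and 1.5 TPM in wild type and 1, 0.76 and 0.83 TPM in ein3eil1, and fell (log2 difference -0.71, SE 0.24, adjusted p = 0.0406). The call of ACS8 was lost without wild type replicate 2 or ein3eil1 replicate 1, 2 or 3 (-0.76 to -0.47, adjusted p from 0.0714 to 0.11). ACS2 did not pass without wild type replicate 3 or ein3eil1 replicate 2 or 3 (0.63 to 0.77, adjusted p from 0.0534 to 0.0663). The call of EOL2 was lost without wild type replicate 2 or 3 or ein3eil1 replicate 1 or 3 (0.65 to 0.70, adjusted p from 0.079 to 0.0871). ETO1 (0.78), ACS2 (0.77) and EOL2 (0.75) were called in deposited TPM only. ACS4 (-0.53), ACS11 (0.42), ACO1 (1.07), ACO3 (-0.05) and ACO4 (-0.18) did not pass in deposited TPM. ACS4 was called lower after both median centring and quantile normalization, and ACO4 after median centring only. ACO4 (ACC oxidase, the last step) was the most abundant of them, at 949 ± 154 TPM in wild type and 841 ± 140.2 TPM in ein3eil1 (SD, n = 3). ACO1 read 12.6 TPM in ein3eil1 replicate 1 and no more than 1.3 TPM in any other library.

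Of 25 tested ERF and EDF factors, 7 fell and none rose in all 3 scalings (5 higher and 7 lower in deposited TPM). RAP2.3, a group VII ERF also called EBP, fell most, from 128, 188 and 157 TPM in wild type to 36.4, 22.7 and 18.6 TPM in ein3eil1 (log2 difference -2.598, SE 0.26, adjusted p = 0.00153). ERF1B, a direct EIN3 target in the textbook pathway, stood at 4.45, 6.29 and 8.23 TPM in wild type and 2.57, 3.49 and 3.94 TPM in ein3eil1 (log2 difference -0.74, SE 0.23, adjusted p = 0.0287). DEWAX, a repressor of wax genes, stood at 107, 153 and 112 TPM in wild type and 88.03, 71.7 and 41.02 TPM in ein3eil1 (log2 difference -0.93, SE 0.29, adjusted p = 0.0352). The falls of ERF2 (-0.58), ERF8 (-0.27), EDF2 (-0.47) and EDF4 (-0.37) were smaller, with adjusted p from 0.0242 to 0.0429, and the ERF2 groups overlapped. ERF1B did not pass without wild type replicate 2 or 3 or ein3eil1 replicate 1 or 2 (-0.77 to -0.55, adjusted p from 0.0592 to 0.0968). The call of DEWAX was lost without wild type replicate 1, 2 or 3 or ein3eil1 replicate 2 (-1.03 to -0.77, adjusted p from 0.0579 to 0.103). ERF2 did not pass without wild type replicate 2 or 3 or ein3eil1 replicate 1 or 2 (-0.55 to -0.46, adjusted p from 0.104 to 0.127). The call of ERF8 was lost without wild type replicate 2 or 3 or ein3eil1 replicate 1 or 2 (-0.26 to -0.23, adjusted p from 0.108 to 0.136). EDF2 did not pass without wild type replicate 2 or 3 or ein3eil1 replicate 2 or 3 (-0.48 to -0.35, adjusted p from 0.0554 to 0.0807). The call of EDF4 was lost without wild type replicate 2 or 3 or ein3eil1 replicate 1 or 2 (-0.35 to -0.28, adjusted p from 0.102 to 0.129). Several stress-responsive ERF genes went the other way in deposited TPM: ERF6 (1.61, adjusted p = 0.00713), ERF104 (1.32, adjusted p = 0.0158), ERF105 (1.75, adjusted p = 0.017), RAP2.12 (0.57, adjusted p = 0.0103) and ERF3 (0.34, adjusted p = 0.0204), none of them in all 3 scalings. ERF104 did not pass without ein3eil1 replicate 1 or 2 (1.29 to 1.3, adjusted p from 0.0506 to 0.0555). The call of ERF105 was lost without ein3eil1 replicate 1 or 2 (1.64 to 1.66, adjusted p from 0.0567 to 0.0655). ERF3 did not pass without ein3eil1 replicate 2 or 3 (0.31 to 0.32, adjusted p from 0.0519 to 0.0759). ERF6 read 3.75, 9.36 and 9.31 TPM in wild type and 27.4, 23.4 and 19.9 TPM in ein3eil1. ORA59, which joins ethylene and jasmonate at the defensin promoters, stood at 18.5, 28.8 and 30.8 TPM in wild type and 20.4, 18.7 and 6.04 TPM in ein3eil1 and did not pass (log2 difference -0.88, SE 0.47, adjusted p = 0.165); its groups overlapped, with ein3eil1 replicate 3 the lowest. RAP2.6 (-1.97), RAP2.6L (-0.54), RAP2.2 (0.19), ERF1A (-0.31), ERF4 (0.40), ERF5 (0.29), ERF9 (-0.45), ERF11 (0.65), ERF13 (0.69), ERF15 (0.07), EDF1 (-0.12) and EDF3 (0.09) did not pass in deposited TPM. ERF9 and RAP2.6L were called lower after both median centring and quantile normalization, and ERF1A after median centring only.

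**Figure D2:**
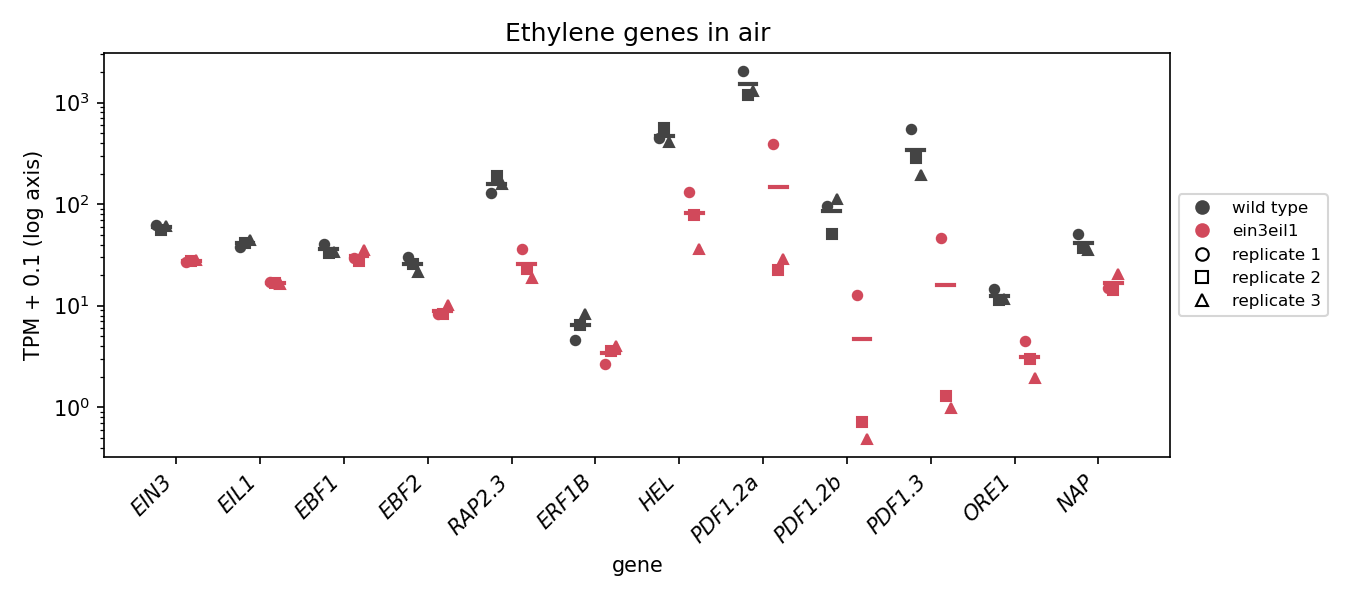
Levels in TPM (log axis, with 0.1 TPM added) of 12 ethylene genes in the 3 wild type and 3 ein3eil1 air libraries, one point per library, bars at the mean. All genes shown except EBF1 were lower in every ein3eil1 library than in every wild type library, and the PDF1.2 and PDF1.3 points of ein3eil1 replicate 1 stand above those of replicates 2 and 3.

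The outputs of the pathway were lower: 6 of 12 tested members fell in all 3 scalings and none rose (1 higher and 8 lower in deposited TPM), with a median difference of -1.51 against 0.38 over all genes. The defensin gene PDF1.2a stood at 2029, 1194 and 1313 TPM in wild type and 389, 22.4 and 29.03 TPM in ein3eil1 (log2 difference -4.502, SE 1.23, adjusted p = 0.0358). PDF1.2b stood at 95.2, 50.5 and 113 TPM in wild type and 12.7, 0.61 and 0.39 TPM in ein3eil1 (log2 difference -4.72, SE 1.03, adjusted p = 0.0181). PDF1.3 stood at 545, 282 and 194 TPM in wild type and 45.9, 1.18 and 0.89 TPM in ein3eil1 (log2 difference -5.75, SE 1.47, adjusted p = 0.0297). PDF1.2c was at 1004, 516 and 684 TPM in wild type and 174, 6.06 and 5.78 TPM in ein3eil1 (log2 difference -5.12, SE 1.47, adjusted p = 0.0412). In all 4 the ein3eil1 libraries lay below wild type, and replicate 1 of ein3eil1 stood far above replicates 2 and 3. The call of PDF1.2a was lost without wild type replicate 1, 2 or 3 or ein3eil1 replicate 2 or 3 (-4.65 to -3.77, adjusted p from 0.0743 to 0.111). PDF1.2b did not pass without ein3eil1 replicate 2 or 3 (-4.24 to -4.14, adjusted p from 0.0615 to 0.0617). The call of PDF1.2c was lost without wild type replicate 1, 2 or 3 or ein3eil1 replicate 2 or 3 (-5.35 to -4.33, adjusted p from 0.0836 to 0.122). PDF1.3 did not pass without wild type replicate 1, 2 or 3 or ein3eil1 replicate 2 or 3 (-6.09 to -4.94, adjusted p from 0.0588 to 0.0923). Without ein3eil1 replicate 1 the differences were larger, at -5.79 for PDF1.2a, -5.79 for PDF1.2b, -6.68 for PDF1.2c and -7.26 for PDF1.3. PDF1.2a and PDF1.2c missed the threshold after quantile normalization, and because these genes are near-identical copies their separate levels are uncertain. HEL (PR4), a hevein-like antimicrobial protein, stood at 445, 562 and 412 TPM in wild type and 132, 77.5 and 36.5 TPM in ein3eil1 (log2 difference -2.68, SE 0.46, adjusted p = 0.00612). ORE1, a NAC factor that drives leaf senescence like its relative NAP, stood at 14.4, 11.3 and 11.6 TPM in wild type and 4.42, 2.92 and 1.84 TPM in ein3eil1 (log2 difference -1.77, SE 0.24, adjusted p = 0.00212). NAP stood at 51.2, 36.8 and 35.2 TPM in wild type and 14.7, 14.3 and 20.6 TPM in ein3eil1 (log2 difference -1.26, SE 0.19, adjusted p = 0.00262). FLS2, the flagellin receptor, stood at 5.88, 4.92 and 3.25 TPM in wild type and 1.57, 1.42 and 1.13 TPM in ein3eil1 (log2 difference -1.24, SE 0.22, adjusted p = 0.00397). For these 4 genes the groups did not overlap. PIF3, a light-signalling factor, was called higher in deposited TPM only (0.55, adjusted p = 0.016). The call of PIF3 was lost without wild type replicate 3 or ein3eil1 replicate 1 (0.45 to 0.51, adjusted p from 0.0535 to 0.0569). PDF1.4 (-1.05), CHIB (-0.41) and HLS1 (0.25) did not pass. With ein3eil1 replicate 2 alone, the median difference of the 12 was -1.60, against 0.36 over all genes.

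The largest falls beyond the ethylene lists were in genes of other functions. The glycine-rich protein gene GRP9 read 31.7, 37.5 and 22.7 TPM in wild type and 0.77, 0.8 and 1.67 TPM in ein3eil1 (log2 difference -3.92, SE 0.23, adjusted p = 0.000266). MAF5, a MADS-box relative of the flowering repressor FLC, read 63.5, 81.2 and 70.6 TPM in wild type and 7.9, 12.4 and 11.4 TPM in ein3eil1 (log2 difference -2.67, SE 0.17, adjusted p = 0.000387). NATA1, an acetyltransferase gene responsive to jasmonate, read 483, 526 and 720.4 TPM in wild type and 142, 89.9 and 56.7 TPM in ein3eil1 (log2 difference -2.65, SE 0.34, adjusted p = 0.00262). In these 3 genes every ein3eil1 library lay far below every wild type library. AZI1, a lipid-transfer-like protein of systemic immunity, was at 49.2, 55.5 and 54.9 TPM in wild type and 19.3, 2.71 and 1.02 TPM in ein3eil1 (log2 difference -3.34, SE 0.90, adjusted p = 0.0313). ELI3-2, an alcohol dehydrogenase of defence, was at 16.02, 23.99 and 26.3 TPM in wild type and 4.75, 2.75 and 0.57 TPM in ein3eil1 (log2 difference -2.81, SE 0.48, adjusted p = 0.00542). CYP94B3, which inactivates jasmonoyl-isoleucine, passed the filter through wild type alone and was at 4.48, 34.3 and 5.38 TPM in wild type and 0.51, 0.61 and 0.35 TPM in ein3eil1. Their replicates varied more, with wild type replicate 2 of CYP94B3 several times above the other two. AZI1 did not pass without wild type replicate 1, 2 or 3 or ein3eil1 replicate 2 or 3 (-3.396 to -2.64, adjusted p from 0.0649 to 0.103). In phyA-211 in air, AZI1 (27.2, 6.09 and 8.1 TPM), ELI3-2 (1.58, 3.55 and 9.23 TPM) and MAF5 (22.97, 11.9 and 22.5 TPM) also lay below every wild type library. So did CYP94B3 and NATA1, while GRP9 overlapped wild type. Compared directly with phyA-211, GRP9, MAF5 and NATA1 were lower in ein3eil1 in all 3 scalings, and AZI1, ELI3-2 and CYP94B3 did not pass.

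The largest called increases in deposited TPM, chosen by size, were as follows. The lipid transfer protein gene LTP3 read 3.46, 3.07 and 6.21 TPM in wild type and 101, 151 and 386 TPM in ein3eil1 (log2 difference 5.16, SE 0.53, adjusted p = 0.00227). CER1, for wax alkanes, read 7.72, 0.91 and 0.59 TPM in wild type and 44.2, 20.8 and 60.9 TPM in ein3eil1 (log2 difference 3.72, SE 0.78, adjusted p = 0.0134). WSD1, a wax ester synthase gene, read 2.58, 0.21 and 1.55 TPM in wild type and 12.8, 9.41 and 22.8 TPM in ein3eil1 (log2 difference 2.76, SE 0.47, adjusted p = 0.00475). LTP4, which passed the filter through ein3eil1 alone, read 0.18, 0.62 and 0.25 TPM in wild type and 6.81, 23.04 and 284 TPM in ein3eil1. PEL3 (3.299, adjusted p = 0.0368) and E13L3 (2.66, adjusted p = 0.0415) were called in deposited TPM but not in all 3 scalings, and ADS4 (2.62, adjusted p = 0.0126) and GLC (2.62, adjusted p = 0.000662) in all. The call of CER1 was lost without ein3eil1 replicate 1 (3.62, adjusted p = 0.0567). PEL3 did not pass without wild type replicate 2 or 3 or ein3eil1 replicate 1, 2 or 3 (2.74 to 3.77, adjusted p from 0.0561 to 0.121). The call of E13L3 was lost without wild type replicate 2 or 3 or ein3eil1 replicate 1 or 3 (2.18 to 2.46, adjusted p from 0.107 to 0.134). Among these genes, CER1, PEL3, E13L3, WSD1, ADS4 and GLC were higher in wild type replicate 1 and phyA-211 replicate 3 than in their group mates and lowest in replicate 2 among the ein3eil1 libraries, as the summed floral level was; its part was not tested. In ein3eil1 replicate 2, which had few floral transcripts, CER1 stood at 20.8 TPM and LTP3 at 151 TPM, above every wild type library. Also chosen by size, the asparaginase gene ASPGB1 read 3.43, 9.86 and 8.29 TPM in wild type and 50.2, 70.5 and 49.5 TPM in ein3eil1 (log2 difference 2.898, SE 0.35, adjusted p = 0.00236). The proline dehydrogenase gene ERD5 read 11.4, 12.8 and 9.85 TPM in wild type and 145, 114 and 42.6 TPM in ein3eil1 (log2 difference 2.87, SE 0.45, adjusted p = 0.00502). GPT2, a plastid sugar-phosphate carrier, read 26.2, 51.8 and 39.6 TPM in wild type and 216, 369 and 226 TPM in ein3eil1 (log2 difference 2.76, SE 0.30, adjusted p = 0.00184). In phyA-211 in air LTP3 (130, 51.3 and 105 TPM) and LTP4 also lay above every wild type library. Compared directly with phyA-211, GLC, ASPGB1, ERD5 and GPT2 were higher in ein3eil1 in all 3 scalings. LTP3, LTP4, CER1, PEL3, WSD1 and E13L3 did not pass, and ADS4 passed in deposited TPM only.

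The light harvesting and Rubisco list was mostly lower in deposited TPM: 19 of its 24 members were lower and none higher, against 5.29% of all genes lower, and 9 fell in all 3 scalings, with a median of -0.79. The antenna gene LHCB2.3 stood at 1628, 1212 and 1328 TPM in wild type and 423, 363 and 434 TPM in ein3eil1 (log2 difference -1.76, SE 0.14, adjusted p = 0.000714). LHCB1.2 read 4288, 3756 and 3854 TPM in wild type and 1522, 1723 and 1595 TPM in ein3eil1 (log2 difference -1.297, SE 0.11, adjusted p = 0.000801). LHCB1.1 was at 7133 ± 444 TPM in wild type and 3048 ± 235 TPM in ein3eil1 (SD, n = 3; log2 difference -1.23, SE 0.11, adjusted p = 0.00101). LHCB1.3, the most abundant antenna gene here, was at 20904 ± 2128 TPM in wild type and 8957 ± 197 TPM in ein3eil1 (log2 difference -1.22, SE 0.12, adjusted p = 0.00113), and missed the threshold only after quantile normalization. These copies are near-identical and reads may be split among them. In the chlorophyll synthesis list 0 of its 18 tested members rose and 6 fell in all 3 scalings (2 higher and 6 lower in deposited TPM). HEMA1, which starts the pathway, read 224, 179 and 197 TPM in wild type and 114, 105 and 107 TPM in ein3eil1 (log2 difference -0.87, SE 0.11, adjusted p = 0.00184). GUN4, a regulator of the pathway, and CAO, which makes chlorophyll b, fell by 0.54 and 0.51. The ferrochelatase gene FC2, on the haem branch, was higher in deposited TPM (0.79, adjusted p = 0.00371) but not in all scalings.

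In the senescence and chlorophyll breakdown list 0 of its 19 tested members rose and 4 fell in all 3 scalings (5 higher and 4 lower in deposited TPM), NAP and ORE1, which are also counted among the outputs, being 2 of those that fell. JUB1 (0.71, adjusted p = 0.00236), a longevity factor, and NYC1 (0.81, adjusted p = 0.00532), of chlorophyll breakdown, were higher in deposited TPM only. SAG12, a protease of late senescence, was listed at 0 in all 3 ein3eil1 libraries and in wild type replicates 2 and 3, and was read in wild type replicate 1 alone, so it was not tested; it was named after its values were seen.

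Most flavonoid genes rose. In the phenylpropanoid and anthocyanin list 18 of its 28 tested members rose and 3 fell in all 3 scalings (22 higher and 3 lower in deposited TPM), with a median of 1.403; of all genes 9.08% rose. The flavonoid hydroxylase gene TT7 read 13.1, 10.8 and 19.3 TPM in wild type and 92.8, 88.7 and 92.9 TPM in ein3eil1 (log2 difference 2.62, SE 0.19, adjusted p = 0.00067). 4CL3, which activates coumaric acid, read 4.74, 4.03 and 6.56 TPM in wild type and 22.6, 26.2 and 27.3 TPM in ein3eil1 (log2 difference 2.13, SE 0.17, adjusted p = 0.000714). UGT78D2, a flavonoid glucosyltransferase, read 33.02, 25.7 and 37.5 TPM in wild type and 122, 105 and 97.1 TPM in ein3eil1 (log2 difference 1.73, SE 0.15, adjusted p = 0.000961). PAL2, at the entry of the pathway, read 38.8, 36.8 and 38.1 TPM in wild type and 101, 109 and 81.04 TPM in ein3eil1 (log2 difference 1.32, SE 0.12, adjusted p = 0.00109). In none of these 4 genes did the groups overlap, and ein3eil1 replicate 2 alone gave 18 calls higher and 1 lower. In phyA-211 leaves TT7 stood at 65.4, 46.4 and 70.3 TPM and UGT78D2 at 55.1, 60.2 and 80.2 TPM, above every wild type library. PAL2 stood at 30.3, 48.4 and 49.2 TPM there, overlapping wild type; phyA-211 was not tested against wild type. Compared directly with phyA-211, where 9.30% of all genes were higher and 4.13% lower in all 3 scalings (44.9% and 4.31% in deposited TPM), 3 of the list were higher in ein3eil1 and 1 lower, PAL2 (1.19, adjusted p = 0.00197) among them and TT7 (0.61, adjusted p = 0.0405) not in all scalings. The phyA-211 air libraries also held 0.731% to 2.04% of TPM in small nuclear RNA genes, against 0.0277% to 0.0553% in the other 2 lines, and the part of this in the direct comparison was not tested.

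**Figure D3:**
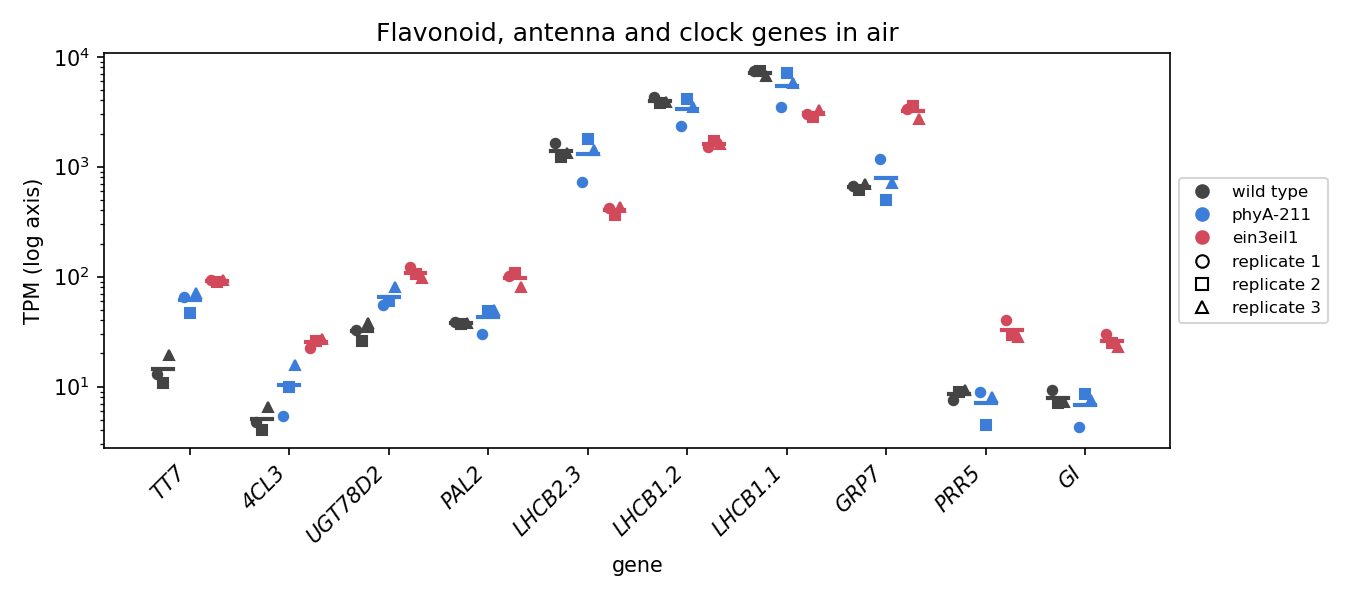
Levels in TPM (log axis) of 4 flavonoid genes, 3 antenna genes and 3 clock genes in the 3 air groups of 3 libraries, one point per library, bars at the mean. Flavonoid genes were higher and antenna genes lower in ein3eil1 than in wild type, and phyA-211 lay between the other 2 lines for TT7 and UGT78D2.

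Several jasmonate synthesis genes fell, and few salicylic acid genes changed in all 3 scalings. Of all genes 9.08% rose and 5.03% fell, and 46.5% were called higher in deposited TPM. In the jasmonate list 1 of its 31 tested members rose and 5 fell in all 3 scalings (9 higher and 6 lower in deposited TPM). AOC2, an allene oxide cyclase gene, read 837, 938 and 985 TPM in wild type and 317, 358 and 316 TPM in ein3eil1 (log2 difference -1.47, SE 0.11, adjusted p = 0.000673). Its relative AOC1 read 352, 491 and 469 TPM in wild type and 148, 139 and 92.97 TPM in ein3eil1 (log2 difference -1.79, SE 0.21, adjusted p = 0.0017). AOS, the step before, read 312, 386 and 372 TPM in wild type and 142, 166 and 138 TPM in ein3eil1 (log2 difference -1.25, SE 0.12, adjusted p = 0.00119). The groups did not overlap for any of these 3 genes of adjoining steps, and AOC1 and AOC2 are close copies whose reads may be split. MYC4, a factor that answers jasmonate, rose instead, reading 14.1, 12.4 and 13.1 TPM in wild type and 27.5, 32.1 and 28.9 TPM in ein3eil1 (log2 difference 1.103, SE 0.10, adjusted p = 0.00109). In the salicylic acid list 2 of its 31 tested members rose and 1 fell in all 3 scalings (12 higher and 1 lower in deposited TPM). PBS3, which makes a salicylic acid precursor, read 21.8, 18.8 and 19.9 TPM in wild type and 35.03, 49.4 and 53.8 TPM in ein3eil1 (log2 difference 1.14, SE 0.16, adjusted p = 0.00236). WRKY62, a defence factor, read 16.3, 15.6 and 17.55 TPM in wild type and 36.9, 39.7 and 65.2 TPM in ein3eil1 (log2 difference 1.42, SE 0.21, adjusted p = 0.00264). ICS1 (0.97, adjusted p = 0.00452), the first synthesis enzyme, and the receptor gene NPR1 (0.57, adjusted p = 0.00252) passed in deposited TPM only. S3H, a salicylic acid hydroxylase gene that was chosen after its values were seen as the 1 that fell, read 57.9, 57.7 and 63.05 TPM in wild type and 14.2, 20.9 and 36.3 TPM in ein3eil1 (log2 difference -1.38, SE 0.31, adjusted p = 0.0114). For camalexin and basal defence, 4 of its 27 tested members rose and 1 fell in all 3 scalings (11 higher and 1 lower in deposited TPM). WRKY33, a camalexin regulator, read 53.6, 69.7 and 62.8 TPM in wild type and 139, 128 and 137 TPM in ein3eil1 (log2 difference 1.12, SE 0.11, adjusted p = 0.00129). CYP79B2 (0.89, adjusted p = 0.00197), PEN3 (1.14, adjusted p = 0.00252) and RBOHD (1.06, adjusted p = 0.00331) rose too, while the 1 that fell was FLS2.

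Clock genes rose in part, while 9.08% of all genes rose and 46.5% were called higher in deposited TPM. In the circadian list 8 of its 23 tested members rose and 1 fell in all 3 scalings (14 higher and 1 lower in deposited TPM). The RNA-binding protein gene GRP7 read 661, 618 and 695 TPM in wild type and 3357, 3564 and 2733 TPM in ein3eil1 (log2 difference 2.28, SE 0.13, adjusted p = 0.000237). PRR5 read 7.56, 8.91 and 9.33 TPM in wild type and 40.1, 29.4 and 28.2 TPM in ein3eil1 (log2 difference 1.79, SE 0.15, adjusted p = 0.000908). GI read 9.23, 7.07 and 7.28 TPM in wild type and 30.01, 24.9 and 22.9 TPM in ein3eil1 (log2 difference 1.603, SE 0.14, adjusted p = 0.001). PRR3 rose by 1.41 (adjusted p = 0.00101). The groups did not overlap for any of the 4. The labels give no time of day for collection. In the cold list 4 of its 13 tested members rose and 0 fell in all 3 scalings (8 higher and 0 lower in deposited TPM), with a median of 1.35. CBF3 read 1.27, 1.4 and 1.67 TPM in wild type and 6.87, 20.8 and 15.8 TPM in ein3eil1 (log2 difference 2.54, SE 0.36, adjusted p = 0.00262). CZF1 rose by 1.42 and ZAT6 by 1.36, and ICE1 (0.70, adjusted p = 0.00252) was called in deposited TPM only. In the phytochrome and light signalling list 6 of its 25 tested members rose and 1 fell in all 3 scalings (15 higher and 1 lower in deposited TPM). PHYB stood at 13.6, 9.27 and 10.9 TPM in wild type and 22.8, 21.2 and 22.6 TPM in ein3eil1 (log2 difference 0.94, SE 0.14, adjusted p = 0.00262). ELIP1, an early light-induced protein, stood at 37.4, 27.2 and 32.4 TPM in wild type and 94.5, 107 and 156 TPM in ein3eil1 (log2 difference 1.83, SE 0.20, adjusted p = 0.00158). FHY3 (0.79, adjusted p = 0.0018), PHYE (0.86, adjusted p = 0.0018) and PHYC (0.94, adjusted p = 0.002) rose too. PHYA stood at 13.2, 11.1 and 10.8 TPM in wild type and 20.6, 16.3 and 15.7 TPM in ein3eil1, called in deposited TPM (log2 difference 0.54, SE 0.14, adjusted p = 0.0142) and at 0.12 after centring (adjusted p = 0.455). It was at 1.2, 1.2 and 1.83 TPM in phyA-211. PHYA did not pass without wild type replicate 3 (0.49, adjusted p = 0.0523). Of 11 shade avoidance genes only YUC8, named after its values were seen, was called lower in all 3 scalings, and it passed the filter through wild type alone, at 1.32, 2.06 and 1.89 TPM in wild type and 0.36, 0.93 and 0.93 TPM in ein3eil1. HAT3 (0.59), TAA1 (1.13), HB4 (1.14) and HAT2 (0.60) were higher in deposited TPM only. The call of HAT2 was lost without wild type replicate 2 or 3 or ein3eil1 replicate 3 (0.43 to 0.61, adjusted p from 0.05 to 0.0564).

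Genes of the cytokinin response and some of the auxin response fell. Of 8 type-A cytokinin response regulators, which are induced by the hormone, 5 fell and none rose in all 3 scalings (2 higher and 5 lower in deposited TPM). ARR16 read 29.7, 30.4 and 31.8 TPM in wild type and 7.71, 8.96 and 10.7 TPM in ein3eil1 (log2 difference -1.65, SE 0.13, adjusted p = 0.000714). ARR6 read 9.37, 7.5 and 8.29 TPM in wild type and 1.34, 1.55 and 2.47 TPM in ein3eil1 (log2 difference -1.77, SE 0.19, adjusted p = 0.00145). ARR9 read 19.3, 15.2 and 16.9 TPM in wild type and 9.66, 7.26 and 8.49 TPM in ein3eil1 (log2 difference -0.94, SE 0.14, adjusted p = 0.0026). ARR8 was called higher in deposited TPM (0.83, adjusted p = 0.00262). In the auxin list 1 of its 29 tested members rose and 6 fell in all 3 scalings (7 higher and 7 lower in deposited TPM). The growth-related SAUR15 (-1.31, adjusted p = 0.00172) and SAUR20 (-1.200, adjusted p = 0.00212) fell. IAA29, which passed the filter through wild type alone, read 7.42, 6.84 and 5.99 TPM in wild type and 0.2, 0.71 and 0.49 TPM in ein3eil1. Against phyA-211 directly, ARR16 (-1.61, adjusted p = 0.000154) was lower in ein3eil1 as well, in all 3 scalings.

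Gibberellin and abscisic acid genes rose in part, while 9.08% of all genes rose and 46.5% were called higher in deposited TPM. In the gibberellin list 3 of its 12 tested members rose and 0 fell in all 3 scalings (6 higher and 0 lower in deposited TPM). GA2OX2, a gibberellin inactivating enzyme gene, read 3.15, 3.5 and 2.59 TPM in wild type and 9.94, 8.17 and 8.01 TPM in ein3eil1 (log2 difference 1.25, SE 0.15, adjusted p = 0.0018). The receptor gene GID1B (0.93, adjusted p = 0.00166) and GASA4 (1.54, adjusted p = 0.00445) rose, with GID1A (0.68) in deposited TPM only. In the abscisic acid list 4 of its 16 tested members rose and 1 fell in all 3 scalings (7 higher and 1 lower in deposited TPM). The synthesis gene NCED3 rose by 1.33, and the breakdown genes CYP707A3 and CYP707A4 by 1.46 and 1.28. The phosphatase gene HAI2, which passed the filter through ein3eil1 alone, read 0.87, 0.47 and 0.53 TPM in wild type and 5.49, 11.97 and 9.83 TPM in ein3eil1. Of the cell wall genes, expansins and xyloglucan endotransglucosylases, 2 of 19 rose and 3 fell. XTH22 (1.27, adjusted p = 0.00255) and EXPA10 (1.42, adjusted p = 0.00424) rose, and EXPA1 fell (-0.78, adjusted p = 0.00753). EXPA4 (0.73) was called in deposited TPM only.

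In the dark and sugar starvation list 2 of its 21 tested members rose and 6 fell in all 3 scalings (6 higher and 6 lower in deposited TPM). BGAL4 read 6.86, 6.65 and 5.37 TPM in wild type and 3.53, 1.46 and 1.46 TPM in ein3eil1 (log2 difference -1.27, SE 0.26, adjusted p = 0.00664). DIN11, which passed the filter through wild type alone, read 2.62, 9.8 and 3.09 TPM in wild type and 0.47, 0 and 0 TPM in ein3eil1. bZIP11, a sucrose-responsive factor, read 21.4, 20.6 and 28.8 TPM in wild type and 74.1, 84.3 and 66.6 TPM in ein3eil1 (log2 difference 1.64, SE 0.15, adjusted p = 0.00109) and TPS5 rose by 1.78. In the heat shock list 1 of its 15 tested members rose and 6 fell in all 3 scalings (2 higher and 6 lower in deposited TPM). ROF2 read 25.1, 28.4 and 35.9 TPM in wild type and 7.58, 11.96 and 9.92 TPM in ein3eil1 (log2 difference -1.51, SE 0.18, adjusted p = 0.00176). HSFA2 read 5.46, 8.32 and 7.63 TPM in wild type and 2.53, 2.78 and 3.08 TPM in ein3eil1 (log2 difference -1.08, SE 0.18, adjusted p = 0.00329). HSP17.6B read 3.49, 4.74 and 5.37 TPM in wild type and 1.35, 2.13 and 1.63 TPM in ein3eil1 (log2 difference -1.03, SE 0.20, adjusted p = 0.00548). The 1 that rose was DREB2A (1.19, adjusted p = 0.00215). HSFA2 and HSP17.6B read no more than 8.32 TPM in any library of the 2 groups, and ROF2 no more than 35.9 TPM. In the core hypoxia list only LDH1 (0.89, adjusted p = 0.00344) rose in all 3 scalings of 19 tested, and SUS1 (0.94), PDC2 (1.41) and HRU1 (1.499) were higher in deposited TPM only. PDC2 read 48.4, 42.1 and 45.6 TPM against 151, 167 and 72.05 TPM, with replicate 3 the lowest of the ein3eil1 libraries.

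The mineral nutrient, glucosinolate and aquaporin lists are read against the 9.08% of all genes that rose and the 5.03% that fell. The sulfur and glucosinolate counts lie near or below those shares. Of 19 sulfur deficiency genes SDI2 (0.87, adjusted p = 0.00165) and SULTR2;2 (1.33, adjusted p = 0.00172) rose, with SHM7 (0.68) and ATPS4 (0.57) in deposited TPM only. Of 15 phosphate genes PHO2 rose, reading 51.4, 39.7 and 43.99 TPM in wild type and 138, 120.1 and 128 TPM in ein3eil1 (log2 difference 1.499, SE 0.12, adjusted p = 0.000714). SPX1 rose too (1.09, adjusted p = 0.00119), with SQD2 (0.64) and PHR1 (0.57) in deposited TPM only. Of 11 iron genes FER3 (0.96, adjusted p = 0.00213) and OPT3 (1.06, adjusted p = 0.00236) rose, and IMA3 fell (-1.34, adjusted p = 0.0378, named after its values were seen). IMA3 did not pass without wild type replicate 1, 2 or 3 or ein3eil1 replicate 2 (-1.39 to -1.299, adjusted p from 0.0829 to 0.104). BTS (0.74) and FER4 (0.47) passed in deposited TPM only. The call of FER4 was lost without wild type replicate 1 or 3 or ein3eil1 replicate 1 (0.32 to 0.42, adjusted p from 0.082 to 0.1). Of 24 glucosinolate genes UGT74B1 (0.76, adjusted p = 0.00173) rose, and MYB28 (0.72), CYP83B1 (0.40) and SOT16 (0.46) passed in deposited TPM only. CYP83B1 did not pass without wild type replicate 3 or ein3eil1 replicate 1 or 2 (0.34 to 0.39, adjusted p from 0.0587 to 0.0729). The call of SOT16 was lost without wild type replicate 3 or ein3eil1 replicate 1 or 2 (0.40 to 0.48, adjusted p from 0.0501 to 0.0809). Of 18 aquaporins 4 fell, PIP2;6 (-0.50, adjusted p = 0.00371) and PIP2;3 (-1.02, adjusted p = 0.0053) among them, and PIP2;5 (1.45, adjusted p = 0.00316) rose, with PIP1;4 (0.75) in deposited TPM only.

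Several vascular markers rose, and 2 of 8 epidermis and 1 of 10 stomatal markers did. Of all genes 9.08% rose, and 46.5% were called higher in deposited TPM. In bulk leaf RNA, a change in the number of cells of a type and in RNA per cell cannot be told apart. Of 9 vascular markers 5 rose in all 3 scalings. The phloem sucrose carrier SUC2 read 65.5, 42.9 and 54.6 TPM in wild type and 131, 151 and 102 TPM in ein3eil1 (log2 difference 1.22, SE 0.19, adjusted p = 0.00307). SWEET11 read 79.8, 61.6 and 68.01 TPM in wild type and 209.7, 211.4 and 122 TPM in ein3eil1 (log2 difference 1.33, SE 0.23, adjusted p = 0.00415). The low-level gene HB8 (1.07, adjusted p = 0.00302) rose with them. IRX1, which passed the filter through ein3eil1 alone, read 0.74, 0.47 and 0.56 TPM in wild type and 3.91, 3.17 and 2 TPM in ein3eil1. Each of the 4 was above wild type in ein3eil1 replicate 2 too. There, the median difference of the list was 1.32, against 0.36 over all genes. In the stomatal list TMM rose (1.64, adjusted p = 0.00411), and 7 of 10 were higher in deposited TPM. SLAC1 (0.68), FAMA (0.46) and MUTE (1.23) passed in deposited TPM only. In the epidermis list GL2 (1.98, adjusted p = 0.00236) rose with CER1 (5 of 8 higher and 1 lower in deposited TPM). ATML1 (0.67) and TRY (0.71) passed in deposited TPM only. TRY did not pass without wild type replicate 1 or 2 or ein3eil1 replicate 2 or 3 (0.51 to 0.73, adjusted p from 0.0614 to 0.079). Cell division genes were higher in deposited TPM in 14 of 16 cases, but 1, CDKB2;1, rose in all 3 scalings. Their median difference was 1.28, and 0.70 with ein3eil1 replicate 2 alone, where that over all genes was 0.36. CDKB2;1 read 5.59, 3.15 and 3.15 TPM in wild type and 17.2, 7.85 and 16.4 TPM in ein3eil1 (log2 difference 1.54, SE 0.32, adjusted p = 0.00824). KN read 8.75, 3.3 and 3.94 TPM in wild type and 23.7, 10.6 and 21.7 TPM in ein3eil1 (log2 difference 1.66, SE 0.41, adjusted p = 0.0166), with ein3eil1 replicates 1 and 3 the highest, as for the floral markers. The call of KN was lost without wild type replicate 2 or 3 or ein3eil1 replicate 1 or 3 (1.43 to 1.53, adjusted p from 0.0515 to 0.0558). CDKB2;2 (1.37) and CYCB1;3 (1.42) were lowest in replicate 2 among the ein3eil1 libraries too. SEP3, a floral marker, was at 1.2, 0.43 and 0.45 TPM in wild type and 8.88, 1.14 and 21.1 TPM in ein3eil1 and did not pass (log2 difference 2.23, SE 0.85, adjusted p = 0.071). Of 2 root markers tested SHR (0.996, adjusted p = 0.00236) rose and SCR (0.75) passed in deposited TPM only, while PLT1 and EXPA7 were listed at 0 in both lines. Of 8 flowering regulators SPL9 (1.71, adjusted p = 0.0029) rose, and SOC1 (0.80), CO (0.78) and FT (0.55) passed in deposited TPM only. FT did not pass without wild type replicate 1 or 2 or ein3eil1 replicate 1, 2 or 3 (0.37 to 0.62, adjusted p from 0.0579 to 0.101).

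**Figure D4:**
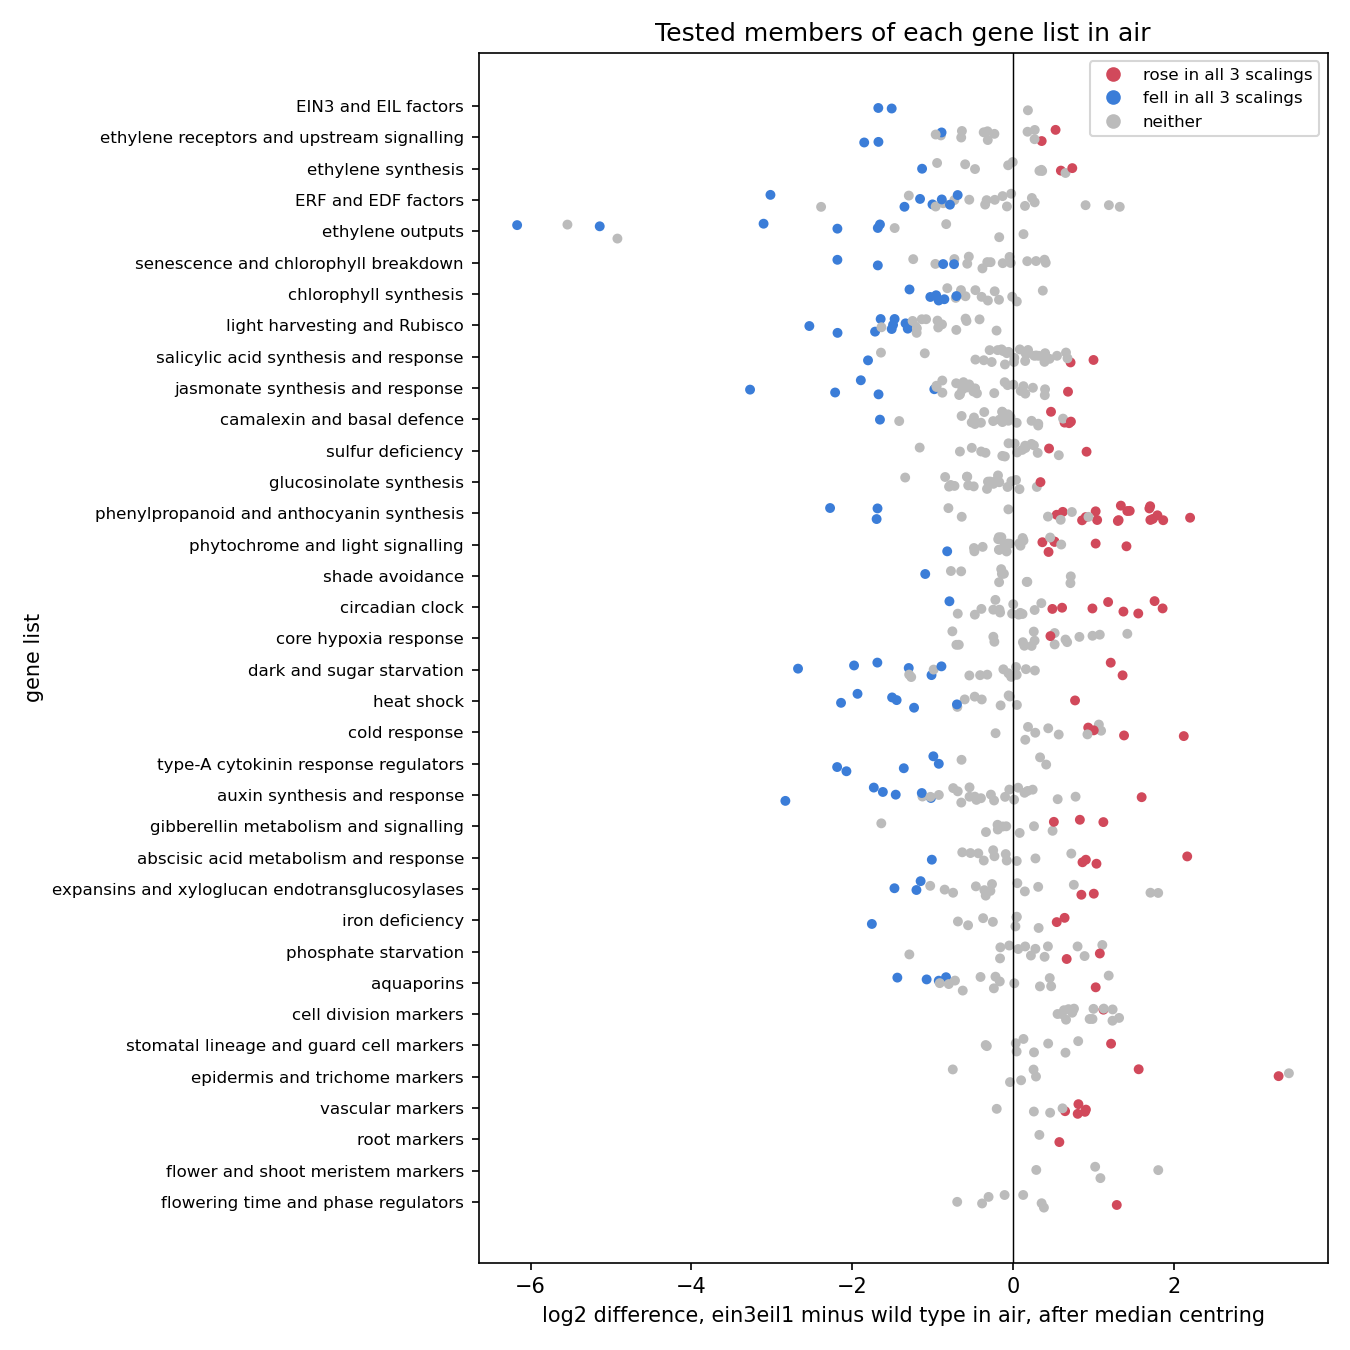
Log2 difference (ein3eil1 minus wild type, in air, after median centring) of every tested member of the 36 lists, one point per gene, coloured where it was called in all 3 scalings. The ethylene outputs, antenna genes and type-A response regulators lie mostly below 0 and the phenylpropanoid list mostly above 0.

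A set of 14 genes, named by locus and chosen after their values were seen, was listed at 0 in every library of 1 group and at 1 TPM or more in every library of the other. The lncRNA AT3G06955 was at 0 in wild type and at 37.9, 29.3 and 30.4 TPM in ein3eil1, AT1G64795 at 0 and 32.6, 21.9 and 48.8 TPM, and AT5G14560 at 0 and 12.1, 31.7 and 18.9 TPM. In the other direction AT5G57760 was at 24.8, 16.8 and 17.9 TPM in wild type and at 0 in ein3eil1, and AT1G27565 at 12.7, 9.5 and 10.04 TPM and 0. No fold or test is given for them here, because they were chosen for this pattern and the other group is listed at 0. The interaction printed further below for AT1G27565 is no measure of size for the same reason. AT3G06955 also stood at 65.8, 27.7 and 18.03 TPM in phyA-211 and AT5G57760 at 31.9, 21.6 and 23.8 TPM.

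Whether the air differences change under water was tested as an interaction over 12 libraries of wild type and ein3eil1. Of all genes 14.1% were positive and 20.6% negative in all 3 scalings, so many differences were not the same in the 2 conditions. PDF1.2b was at 68.5, 70.5 and 73.2 TPM in submerged wild type and 0.62, 0 and 2.24 TPM in submerged ein3eil1, HEL differed by -2.36 there against -2.68 in air, and their interactions did not pass (adjusted p = 0.685 and 0.644), which does not show that the differences are equal. ORE1 (-1.77 in air, -3.605 under water) and NAP (-1.26 and -3.33) differed more under water, with interactions called in all 3 scalings. EBF2 read 98.8, 109 and 102 TPM in wild type and 8.67, 4.57 and 12.3 TPM in ein3eil1 under water, an interaction of -2.11, adjusted p = 0.000668. Genes that did not pass in deposited TPM in air differed under water: ERS1 by -2.26, CTR1 by -1.48 and RTE1 by -1.82, each with an interaction called in all 3 scalings. ARGOS, which passed the filter through wild type alone, differed by -4.46 under water. The difference of AOC1 changed sign, reading 37.3, 37.1 and 36.5 TPM in wild type and 750.2, 843 and 608 TPM in ein3eil1 (log2 difference 4.26, SE 0.18, adjusted p = 4.66e-09 under water; interaction 6.06, adjusted p = 4.31e-08). So did that of HSFA2, at 1.38, 1.22 and 2 TPM in wild type and 27.6, 81.4 and 22.6 TPM in ein3eil1 (interaction 5.01, adjusted p = 4.01e-05). GRP7, 2.28 higher in air, differed by -0.19 under water (interaction -2.47, adjusted p = 6.15e-06). TT7 went from 2.62 to 1.15, at levels of 1.18 and 3.89 TPM under water. The small nuclear RNA share was 0.433% to 0.592% in both submerged groups, against 0.0277% to 0.0553% in their air groups, and its part in the interaction was not tested. The summed floral level was 51.4, 9.86 and 14.98 TPM in submerged ein3eil1 and 7, 6.31 and 5.83 TPM in submerged wild type, beside the air levels above, and its part in the interaction was not tested either.

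**Figure D5:**
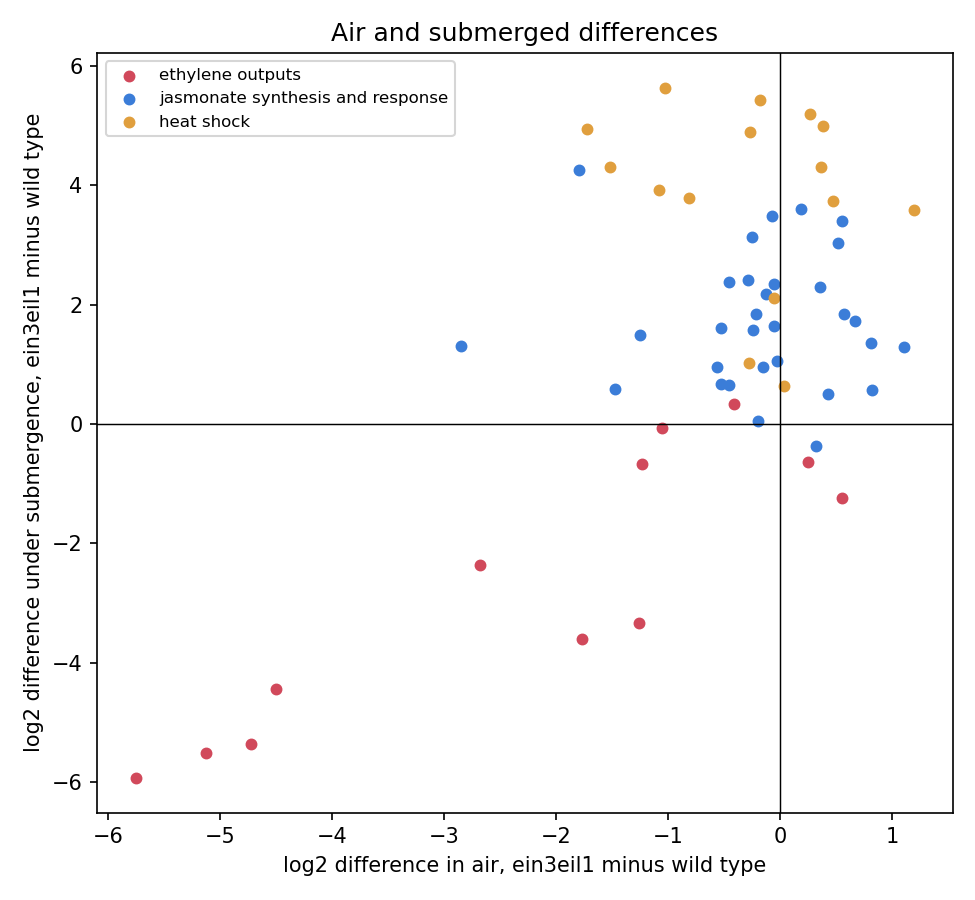
Log2 difference of ein3eil1 from wild type in air (horizontal axis) and under submergence (vertical axis) for tested members of the ethylene output, jasmonate and heat shock lists, one point per gene, deposited TPM. Of 12 outputs 10 lie below 0 in air and 11 under submergence, while 30 of 31 jasmonate and 15 of 15 heat shock genes lie above 0 under submergence.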

How the data were processed

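Expression was given as TPM per gene in the authors' deposited table of 18 libraries, from which 9 air libraries and 6 submerged libraries were used; the unit is named in no source used here and was inferred from nearly equal column sums and decimal values, and no count table was used. The submitters' processing notes name fastp, cutadapt, HISAT2, DESeq2 and the TAIR10 build, with no roles or parameters, and use of strand is not given in the sources used here. Counting intervals cannot be had, since TPM keeps no depth. Genes at 1 TPM or more in at least 3 of the 6 compared libraries were kept, and log2(TPM + 1) was tested with limma 3.58.1 (trend, robust; R 4.3.3), two-sided, with Benjamini-Hochberg adjustment at 0.05 over all 18812 genes. The comparison of ein3eil1 with wild type used 6 libraries, that with phyA-211 used 9, and the interaction with submergence used 12. The 3 submerged phyA-211 libraries entered only alternatives with all 18 libraries. Simulated data with known changes served to test the fit. Among the members, 93 loci had no match in the reference, and 880 listed genes held values identical to another gene. Named genes were EIN3, EIL1, PHYA and PHYB, the 12 largest called changes in each direction (of nuclear genes that code for protein, have a symbol, average 5 TPM or more and do not overlap between groups), all tested ethylene genes, and in each other list the 4 called members of smallest adjusted p, or the 1 of smallest p where none was called; other names are marked in the text as chosen after their values were seen. A few genes that the rule would name are not reported here. The members, the 36 lists and the rule of agreement over 3 scalings were chosen with earlier results of these data known. Alternatives were pseudocount, filter, scaling, replicate block, library weights, left-out libraries and libraries with few floral transcripts, the last chosen after seeing the data.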

Additional observations from a re-analysis of the deposited data

Results flagged for a closer look

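The interaction (log2 difference of ein3eil1 from wild type under submergence minus that in air, limma over 12 libraries) was called in all 3 scalings for the genes below, among those named above. Because 14.1% and 20.6% of all genes were called so in the positive and negative direction, such calls are common, and no explanation was tested. ACS4, ARGOS, CYP94B3 and IAA29 passed the filter through wild type alone, and HAI2, MUTE and IRX1 through ein3eil1 alone. The air part of their interactions was selected to differ, so those calls support nothing. The values are interactions on the log2(TPM + 1) scale, in deposited TPM. Ethylene genes with a positive interaction were ACS2 at 2.48, EDF4 at 1.23, EDF2 at 1.71, EIL3 at 0.47, ACS4 at 1.73, ARL at 0.96, EIN4 at 1.03, EIN3 at 0.802, ERF1A at 1.41, ACS8 at 2.43 and ERF2 at 0.91. Ethylene genes with a negative interaction were PIF3 at -1.78, NAP at -2.07, RTE1 at -1.88, EIL1 at -1.37, ERF15 at -0.74, ERS1 at -2.04, RAP2.2 at -0.79, ETP2 at -0.84, ARGOS at -3.92, CTR1 at -1.67, EBF2 at -2.11, ORE1 at -1.84, ERF9 at -3.23, ERF5 at -1.45 and ERF104 at -1.73. Hormone, defence and jasmonate genes with a positive interaction were GA2OX2 at 2.03, PEN3 at 1.49, ICS1 at 3.98, WRKY33 at 0.94, AOC1 at 6.06, AOC2 at 2.06, CYP94B3 at 4.17, S3H at 1.59, CYP79B2 at 1.32, WRKY62 at 2.73, PBS3 at 2.42, AOS at 2.75 and RBOHD at 1.97. Hormone, defence and jasmonate genes with a negative interaction were HAI2 at -2.07, ARR16 at -3.54, ARR8 at -1.12, IAA29 at -1.18 and GASA4 at -2.505. Light, clock, photosynthesis and flavonoid genes with a positive interaction were CAO at 0.51, HEMA1 at 1.23, FT at 2.48, PHYB at 0.68, JUB1 at 1.896 and LHCB2.3 at 2.19. Light, clock, photosynthesis and flavonoid genes with a negative interaction were PHYA at -1.02, GI at -0.83, 4CL3 at -1.84, GRP7 at -2.47, HAT3 at -1.23, NYC1 at -0.66, TT7 at -1.47, UGT78D2 at -0.99, PRR5 at -0.66, HAT2 at -1.13 and PRR3 at -1.595. Stress, starvation and transport genes with a positive interaction were SDI2 at 1.97, SHM7 at 3.21, HSFA2 at 5.01, HSP17.6B at 6.67, IMA3 at 1.42, PIP2;3 at 2.49, BTS at 1.11, LDH1 at 2.09, SQD2 at 1.62, DREB2A at 2.397, SPX1 at 1.58, ROF2 at 5.82 and XTH22 at 0.81. Stress, starvation and transport genes with a negative interaction were EXPA10 at -1.04, PIP2;6 at -0.71, EXPA4 at -2.38, FER3 at -1.17, TPS5 at -1.92 and CBF3 at -2.005. Cell type markers with a negative interaction were SLAC1 at -0.98, CDKB2;1 at -1.502, GL2 at -1.35, TMM at -1.996, MUTE at -1.88, CYCB1;3 at -1.54, FAMA at -0.82, IRX1 at -0.96, HB8 at -0.83 and SHR at -0.86. Other genes with large changes with a positive interaction were AT1G27565 at 3.54, GRP9 at 2.002 and NATA1 at 5.45. Other genes with large changes with a negative interaction were ADS4 at -3.72, GLC at -1.74, ASPGB1 at -2.64, ERD5 at -2.08 and WSD1 at -2.36. AT1G27565 was called at 3.54 too, but it was listed at 0 in ein3eil1 in air and in both submerged groups. That value reflects its wild type level in air alone. The gene was chosen for its values of 0, so its call supports nothing. WSD1 was listed at 0 in submerged wild type, so its value depends on the pseudocount and is no measure of size. Under submergence GLC averaged 0.23 TPM in wild type and 1.36 TPM in ein3eil1, ADS4 2.28 and 0.55 TPM, and TT7 1.18 and 3.89 TPM. The interactions of these and other low genes depend on the pseudocount too. AOC1, AOC2, AOS, NATA1, HSFA2, ROF2 and HSP17.6B were lower than wild type in air and higher under submergence in deposited TPM. Ethylene genes that fell in air changed sign too: EDF2 (-0.47 in air, 1.25 under submergence), EDF4 (-0.37 and 0.87) and ACS8 (-0.71 and 1.72). HEMA1 did so as well (-0.87 and 0.36), and not all sign changes are listed here.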

How the results depend on the processing

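Counts are higher then lower in ein3eil1 unless stated, against 8753 and 995 in deposited TPM. Against wild type, median centring gave 1883 and 3030, quantile normalization 2212 and 2226, calls in all 3 scalings 1708 (946 lower is within 1.5 times), rescaling without the 100 most abundant genes 5325 and 1559, and all 18 libraries 5335 and 562. Leaving out each replicate gave 6296 to 8714 higher and 722 to 1013 lower. After centring, leaving out wild type replicate 1, 2 or 3 gave 2429, 829 and 820 higher and 3385, 1739 and 1700 lower, and leaving out ein3eil1 replicate 1, 2 or 3 gave 842, 1045 and 1393 higher and 1878, 2014 and 2395 lower. Libraries with few floral transcripts gave 1350 and 268 (223 and 505 centred). The replicate block gave 8616 and 1003; with centring it gave 1783 and 2881. Same-numbered libraries deviated with r of 0.182, 0.067 and -0.109, so the numbers were not taken as pairing. Against phyA-211 the counts were 1812 and 3170 with centring, 2301 and 2460 with quantile normalization, 5533 higher with rescaling, 1750 higher in all 3 scalings, 4017 and 386 with few floral transcripts and 402 higher with both, against 8444 and 810. Leaving out each ein3eil1 replicate gave 5880 to 7035 higher and 562 to 613 lower. The interaction had 5134 negative calls, 3284 with all 18 libraries. Sign changes came with centring, which lowers every difference by construction, and for RTE1 also with quantile normalization. ERF3 stood at -0.0743 with centring, alone or with the block, and at -0.154, -0.0152 and -0.0535 without wild type replicate 1, 2 or 3 and -0.126 and -0.105 without ein3eil1 replicate 2 or 3. CYP83B1 stood at -0.0195 with centring, alone or with the block, at -0.0668 and -0.0244 without wild type replicate 1 or 3, and at -0.0253 and -0.0973 without ein3eil1 replicate 1 or 2. RTE1 was called lower with centring (-0.36), quantile normalization (-0.40) and centring without ein3eil1 replicate 3 (-0.43). With centring and 1 library out, SOT16 read -0.113 and -0.037, FT -0.0273, FAMA -0.0128, RTH -0.37, ERF5 -0.41 and FER4 -0.0206, -0.0019 and -0.0722. FER4 read -0.0537 with centring and few floral transcripts, and ERF15 -0.35 with centring and the block. Read depth is not kept in TPM, so its limit on low genes is unknown.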
